A study of Caenorhabditis elegans with 2 samples.

Results

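KLE-2 peaks with no other peak within 20 kb on either side were examined in young adult Caenorhabditis elegans. Peaks were sorted along each chromosome, and a peak was called isolated when the gaps to the previous and to the next peak were both 20000 bases or more, with the first and last peak of each chromosome left out. Of 6218 KLE-2 peaks, 488 met this rule, 5730 did not, and 12 of the latter were the end peaks of the 6 nuclear chromosomes. Isolation was therefore defined by the peak positions themselves. The numbers and positions of isolated peaks are descriptions of this list, and so are their scores and widths, which come from the same library and the same peak calling. No test was made on any of them.

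The peaks came from chromatin immunoprecipitation followed by sequencing (ChIP-seq) of whole animals of the strain fem-2(b245), genotype fem-2(b245)III, kept at 20 °C and labelled as hermaphrodites at the young adult stage with a germline. Growth notes in the labels speak of gravid adults from bulk cultures, so each library pools many animals and all of their tissues. The antibody was an affinity-purified rabbit polyclonal serum against KLE-2. The study held 1 ChIP and 1 input library, and the values here come from the 1 peak list of the ChIP library, so no value has a replicate check.

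Condensin II is a ring-shaped SMC complex, and KLE-2 is its kleisin, the subunit that links the ATPase heads and holds the other non-SMC subunits. The complex compacts and helps to segregate chromosomes in mitosis and meiosis. In C. elegans a further condensin, the dosage compensation complex, binds both X chromosomes of hermaphrodites, and the kleisin of that complex is DPY-26, not KLE-2. The gene fem-2 encodes a phosphatase of the sex determination pathway that promotes male fates, including the making of sperm by hermaphrodites.

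Each peak carries a score that the authors' peak caller gave it, with no scale named. Scores in the list ended at an apparent ceiling of 3100, at or above which 181 peaks lay. Positions are on WormBase WS220, and the genes at them were not analysed here.

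Isolated peaks made up 7.85% of all KLE-2 peaks (exact Clopper-Pearson 95% interval 7.19 to 8.54%). The intervals given here cover counting error only and treat peaks as independent of each other. X carried more isolated peaks than any other chromosome, 141 of the 488, or 28.9% (24.9 to 33.1%), although it held 6.996% of all peaks and 17.7% of the span. Chromosome V followed with 115, IV with 84, II with 61, I with 51 and III with 36. Per length, X held 7.96 isolated peaks per Mb, V 5.50, IV 4.80, II 3.996, I 3.38 and III 2.61. This is the exact reverse of the order of total peak density, in which X had the fewest peaks per Mb (24.6) and III the most (92.1). As a share of the peaks of a chromosome, 32.4% of the X peaks were isolated (28.0 to 37.0%), against 6.0% of the autosomal peaks (5.40 to 6.64%). Among the autosomes the share ran from 2.84% on III (1.99 to 3.91%) to 11.1% on V (9.27 to 13.2%).

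An isolated peak needs a pair of long gaps, and chromosomes differed widely in how many of their gaps were long. Of the 434 gaps between neighbouring peaks on X, 236 were 20 kb or longer, or 54.4%, and together they took up 90.3% of the X span. On III only 192 of 1268 gaps were that long, or 15.1%, although they still took up 52.7% of its span. To set the counts beside this, the number of isolated peaks was worked out for the same gaps in random order on their own chromosome. That number is known exactly, with a mean and SD that need no random draw.

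With the gaps in random order, 435.2 ± 14.0 isolated peaks (mean ± SD over orders) would be found in all, against the 488 observed, a ratio of 1.12. The observed number was higher on 6 of 6 chromosomes, but by very unequal amounts. On chromosome I, 51 were observed against 36.9 ± 5.06, a ratio of 1.38 and the largest of the 6. On IV, 84 stood against 70.9 ± 6.31, and on X 141 against 127.8 ± 5.18. III had 36 against 28.9 ± 4.57. On II the difference, 61 against 56.5 ± 5.76, was within 1 SD. On V, the sparsest autosome, 115 stood against 114.2 ± 7.14, so its long gaps were next to each other about as often as in random order. The random orders keep the gap lengths, so an excess says only that long gaps were next to each other more often than in those orders.

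**Figure D1:**
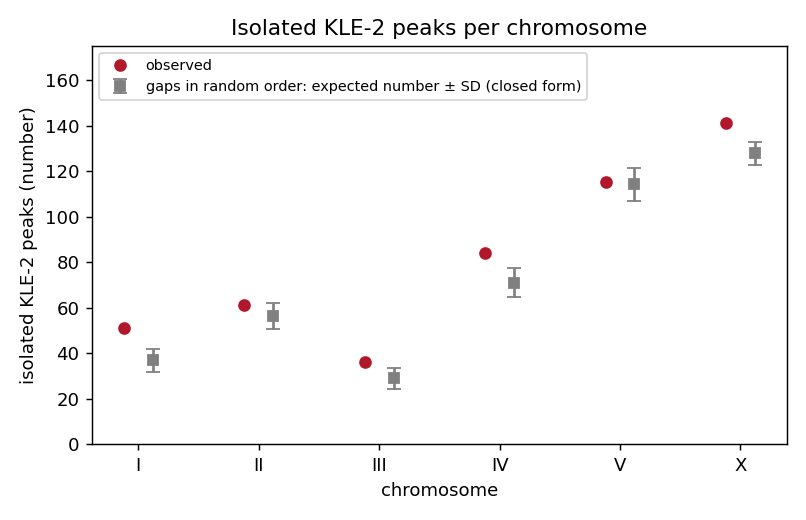
Number of isolated KLE-2 peaks on each chromosome (y axis, number of peaks), as observed (circles) and with the gaps of that chromosome in random order (squares, mean; bars, SD over orders, by a closed formula). X (141) and V (115) hold the most; on V the observed number lies within the bar, and on I (51 against 36.9) it lies farthest above it in relative terms.

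Isolated peaks also stood next to each other. The 488 fell into 305 runs of consecutive isolated peaks, of which 197 held a single one. On X only 24 of the 141 stood alone in this sense, or 17.0%, and 93 were in runs of 3 or more. On the autosomes 173 of 347 stood alone, or 49.9%, and 60 were in runs of 3 or more. With the gaps of each chromosome in random order, the expected number standing alone, by a closed formula, is 26.9 on X and 170.7 on the autosomes, or 21.1% and 55.5% of the isolated peaks expected there. A difference of this size between X and the autosomes is thus already present in random order. The longest run held 8 peaks and filled a 703-kb stretch of X (9119060 to 9822502) with no other peak. Its scores, in order along the chromosome, were 260.04, 1209.94, 253.78, 115.65, 88.82, 498.79, 3100 and 124.16. A run of 7 on X spanned 978 kb (5764294 to 6742019), with scores of 50.4, 943.67, 784.87, 140.94, 572.3, 374.21 and 1009.86. The only autosomal run of that length lay on V in 667 kb (2891573 to 3558729), with scores of 436.13, 376.54, 937.56, 56.55, 82.52, 3100 and 3100. Each of these 3 sparse stretches thus held weak and strong peaks side by side, with 124.16 next to 3100, 50.4 next to 943.67 and 82.52 next to 3100.

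Over 3 parts of equal span, isolated peaks were spread almost evenly on most chromosomes and least so on IV. Each chromosome was cut into a left arm, a center and a right arm of equal span, with the span running from base 1 to where the last peak ends. In this species autosome arms are richer in repeats and recombine more, and autosome centers are denser in genes. On X the 3 parts held 46, 50 and 45 isolated peaks, on V 38, 40 and 37, on II 20, 21 and 20, on III 13, 12 and 11, on I 16, 16 and 19, and on IV 24, 29 and 31. The arms together held 65.6% of the isolated peaks (61.2 to 69.8%), close to their 66.7% of the span, and 69.7% of the other peaks (68.5 to 70.9%). Had isolated peaks on each chromosome the arm share of its other peaks, 360.1 of the 488 would lie in arms, against 320 observed.

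Of this difference of 40.1 peaks, X gave 29.9. All X peaks together were concentrated in the arms, with 178 and 165 in the left and right arm and 92 in the center. As the isolated ones were even, 54.3% of the peaks in the center of X were isolated (43.6 to 64.8%), against 25.8% in its left arm (19.6 to 32.9%) and 27.3% in its right arm (20.6 to 34.7%). The arms held 64.5% of the isolated peaks on X (56.0 to 72.4%) and 85.7% of the other X peaks (81.2 to 89.5%). On the autosomes the corresponding shares, 66.0% (60.7 to 71.0%) and 68.8% (67.6 to 70.1%), had overlapping intervals. There 6.51% of the center peaks and 5.77% of the arm peaks were isolated.

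**Figure D2:**
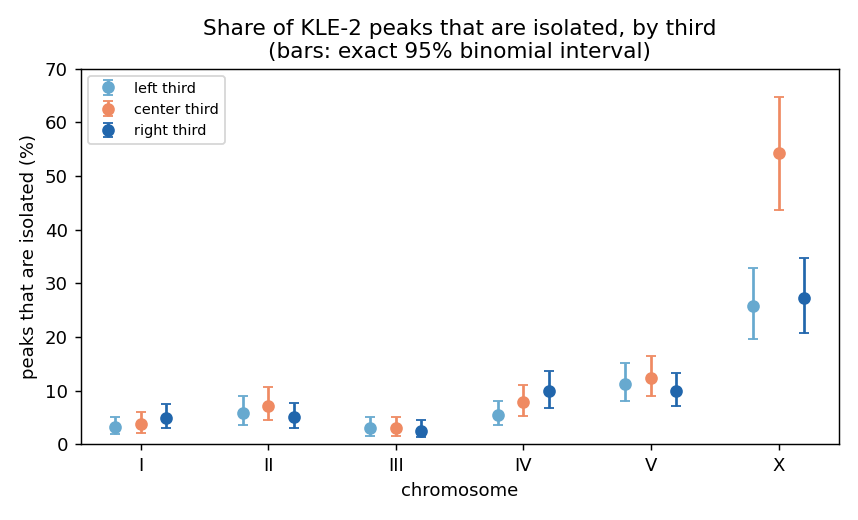
Share of KLE-2 peaks that are isolated (y axis, percent of the peaks in that part) in the left arm, the center and the right arm of each chromosome, which are parts of equal span, with exact 95% binomial intervals as bars. The center of X stands at 54.3%, above both of its arms, while the intervals of the 3 parts overlap on each of the other chromosomes.

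In windows of 1 Mb, the autosomes held 4.25 ± 2.30 isolated peaks (SD, n = 80 windows) and X held 8.06 ± 2.68 (SD, n = 17 windows). Windows are positions in 1 genome, not replicates. The fullest, with 12 each, were on X between 5 and 6 Mb and between 16 and 17 Mb. The fullest autosomal window, with 11, was on IV between 15 and 16 Mb. Just 2 windows held none, both on chromosome I (6 to 7 Mb and 10 to 11 Mb), with 86 and 91 peaks.

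**Figure D3:**
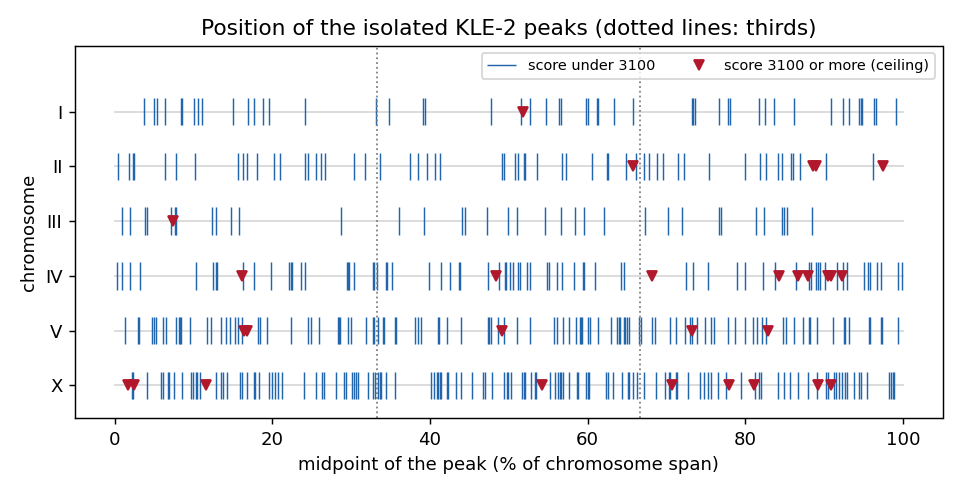
Midpoint of each of the 488 isolated KLE-2 peaks along its chromosome (x axis, percent of the span, which runs from base 1 to where the last peak ends; y axis, chromosome). Lines mark peaks with a score under 3100 and triangles the 29 at the ceiling, 9 of which are on X and 9 on IV.

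The shorter of the 2 gaps had a median of 29.8 kb (quartiles 24.0 and 38.7 kb), and the longer one a median of 52.5 kb (37.4 and 76.6 kb). The shorter gap reached 50 kb in 59 peaks, 34 of them on X, and 100 kb in 9, 8 of them on X. The rule's limit cut through a continuous range. Just inside it were a peak on II (4078185 to 4078484) with a shorter gap of 20015 bases, one on III (2171817 to 2172509) and one on V (14734226 to 14734693), both with 20053 bases. Their scores were 51.93, 595.57 and 136.03. Just outside were a peak on II (8062091 to 8062765) and one on V (7084696 to 7085154), both with 19998 bases, and another on II (12648719 to 12651680) with 19992 bases. The scores of these were 822.23, 189.8 and 3100.

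The most isolated KLE-2 peak of all lay in the center of X (6296228 to 6296849), 204 kb from the peak before it and 445 kb from the next. It was 622 bp wide and had a score of 1009.86, above those of its neighbours (374.21 and 123.51). Next came a ceiling peak, also in the center of X (9605155 to 9607938), with 139 kb and 166 kb to either side. It was 2784 bp wide, and its neighbours scored 498.79 and 124.16. It is the only ceiling peak among the 10 with the largest shorter gap.

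The remaining 8 of those 10 had scores of 81.33 to 481.94. On X they lay at 7661527 to 7662009 (score 213.61), 6091805 to 6092421 (374.21), 13145059 to 13145510 (107.11), 12171830 to 12172374 (481.94), 2536311 to 2536835 (111.81), 12872186 to 12872552 (87.66) and 3771437 to 3771778 (81.33). The only autosomal one was on V (3052955 to 3054166, score 376.54), with gaps of 103 kb and 150 kb. The scores of those 10 thus ran from 81.33 to the ceiling, with most of them at 481.94 or lower.

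The scores of isolated peaks were spread wider than those of the other peaks. At the median they were slightly lower, 201.3 (95% interval from order statistics 165.83 to 244.7) against 231.255 (222.66 to 241.39), and the intervals overlap. The lower quartile was 91.8 against 105.3 and the upper quartile 573.65 against 578.97. Above that the order turned, with a 90th percentile of 1898 against 1389. At the ceiling were 29 of the 488 isolated peaks, 5.94% (exact 95% interval 4.02 to 8.42%), against 152 of the 5730 others, 2.65% (2.25 to 3.10%). This comparison at the ceiling was not planned. The isolated set also held the lowest score of the whole list, 50.08, at a 282-bp peak on II (2476871 to 2477152), named here after its score was seen.

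**Figure D4:**
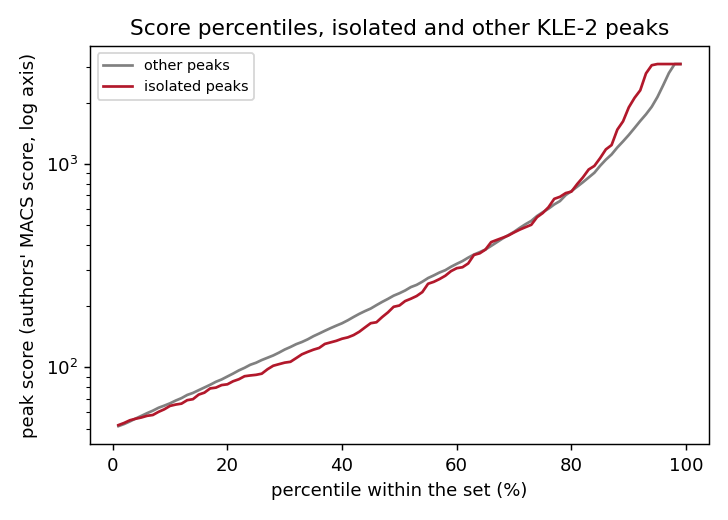
Peak score (y axis, the authors' score on a log axis) at each percentile of the set (x axis, percent) for isolated and for other KLE-2 peaks. The isolated curve lies below the other around the median (201.3 against 231.255) and above it at the 90th percentile (1898 against 1389), until both reach the ceiling of 3100.

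Peak scores differ between chromosomes, so the same comparison was made within each. The median of the isolated peaks was lower on 3 of 6 chromosomes and higher on the other 3. On chromosome I it was 133.62 (105.61 to 230.21) against 228.4 (206.38 to 249.04), and on V 198.59 against 249.72. On X the medians were almost the same, 164.75 (120.44 to 227) against 168.995 (142.93 to 193.28). On II the isolated peaks had the higher median, 301.05 against 240.92, as they had on III, 277.185 against 244.53, and on IV, 249.575 against 222.845. On the pooled autosomes it was 219.25 (172.68 to 277.83) against 236.265 (226.64 to 247.85). The lower median was thus not shared by all chromosomes, and the intervals of isolated and other peaks overlap on each of them.

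The direction of the larger ceiling share was common to more chromosomes, but its size was not even. It was higher among isolated peaks on 5 of 6 chromosomes, although each chromosome has few such peaks. The widest difference was on IV, with 9 of 84 or 10.7% (5.02 to 19.4%) against 3.65% of the others (2.59 to 4.97%). On II there were 4 of 61, 6.56% against 2.67%, on X 9 of 141, 6.38% against 4.42%, on V 5 of 115, 4.35% against 3.37%, and on III 1 of 36, 2.78% against 1.46%. On I, 1 of 51 isolated peaks was at the ceiling, 1.96% against 2.05%. Only on IV did the intervals of isolated and other peaks not overlap. Had the isolated peaks of each chromosome the ceiling share of its other peaks, 16.4 would be at the ceiling, against the 29 observed. The autosomes alone gave 5.76% (3.56 to 8.76%) against 2.56% (2.15 to 3.01%).

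Read the other way, 16.0% of the ceiling peaks were isolated (11.0 to 22.2%), against 6.70% of the peaks between the upper quartile and the ceiling (5.43 to 8.15%), 6.89% and 7.52% between the quartiles above and below the median, and 9.19% at or below the lower quartile (7.80 to 10.7%). The share was thus highest at the ceiling and next highest among the weakest peaks, although the interval of the latter overlapped those of the classes above it and below the ceiling. Peaks with a long gap on neither side were at the ceiling in 2.32% (1.86 to 2.86%), those with 1 in 3.21% (2.49 to 4.07%) and those with 2, the isolated ones, in 5.94%. By the shorter gap, the share was 2.44% under 1 kb, 1.90% from 1 to 2 kb and 2.01% from 2 to 5 kb. It was 3.91% from 5 to 10 kb (2.76 to 5.38%) and 3.64% from 10 to 20 kb (2.37 to 5.33%), and both intervals overlap that of the isolated peaks. The median scores of peaks with a long gap on neither side and of those with 1 long gap were 230.185 and 231.155. Their intervals overlap (220.34 to 244.35 and 214.54 to 249.41).

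Within the isolated set as a whole, the median score did not rise or fall steadily with the shorter gap. Peaks with a shorter gap of 20 to 30 kb had a median score of 198.8 (150.88 to 263.47) and 6.10% at the ceiling. Those of 30 to 50 kb had 231.67 (160.29 to 281.17) and 5.46%. The 59 peaks at 50 kb or more had 138.97 (107.11 to 374.21) and 6.78%. On X alone the median fell at each step, from 175.47 to 164.75 and 118.61. On the autosomes it was 203.77, 260.435 and 139.15. Within each of these groupings, all intervals of the median overlap.

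**Figure D5:**
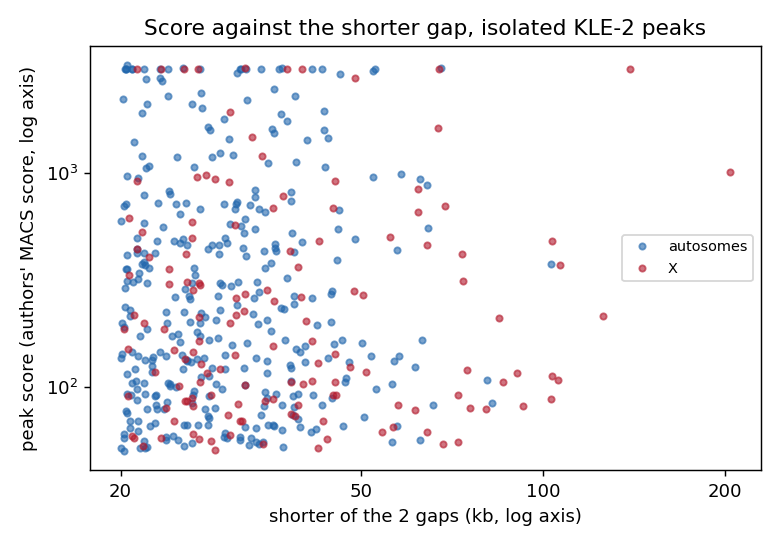
Score (y axis, the authors' score, log axis) of each isolated KLE-2 peak against the shorter of its 2 gaps (x axis, kb, log axis), for autosomes and X. Points at the top lie at the ceiling of 3100, at gaps from just above 20 kb to 139 kb, and most peaks beyond 100 kb (8 of 9) are on X.

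Isolated peaks were narrower at the median, 503.5 bp (487 to 523 bp) against 541 bp (535 to 547 bp). Within chromosomes the difference was seen on 4 of 6, from 486 against 541 bp on I to 540 against 551 bp on II. On V both medians were 536 bp, and on X they were 481 and 480.5 bp. Only on I did the intervals of the median not overlap (416 to 507 bp against 526 to 554 bp). On the pooled autosomes the medians were 516 bp (492 to 540 bp) and 545 bp (540 to 552 bp), with intervals that touch. The upper end again went the other way: 43 isolated peaks, or 8.81% (6.45 to 11.7%), were 1500 bp or wider, against 4.52% of the others (3.997 to 5.09%). At the broad share of the other peaks on each chromosome, 30.6 isolated peaks, or 6.27%, would be this wide. The share of broad peaks was higher among isolated peaks on II (14.8% against 3.91%), V (10.4% against 4.68%) and IV (8.33% against 6.14%). It was lower on I (1.96% against 2.68%), III (2.78% against 3.97%) and X (9.22% against 10.5%). Width rises with score in this list. Among peaks of like score, isolated ones were narrower up to the lower quartile of the score (368 against 377 bp at the median), from there to the median (463 against 482 bp) and from the median to the upper quartile (549 against 583 bp). They were wider above the upper quartile, with 787 against 757 bp below the ceiling (92 isolated peaks) and 2077 against 1819 bp at the ceiling (29 isolated peaks). These class medians pool X with the autosomes and carry no interval.

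The isolated peaks with the highest scores included 5 of the 10 peaks in the list above 3100. The first lay on IV (2828370 to 2830723, score 3212.27), 2354 bp wide and 42.9 kb and 20.5 kb from neighbours that scored 343.73 and 114.69. On II a 2119-bp peak (13520404 to 13522522, 3116.76) had a weak neighbour, with a score of 63.49, on its left and a ceiling peak 52.3 kb to its right. The next, on IV (15895565 to 15896361, 3116.29), was only 797 bp wide and stood 67.8 and 74.8 kb from neighbours of 3100 and 1757.28. Another on IV (11913423 to 11915653, 3108.15) had neighbours of 56.09 and 143.39. The one on X (442647 to 444081, 3100.8) lay in the left arm, between neighbours of 619.93 and 1826.58.

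The other named peaks were tied at 3100. The widest isolated peak, of 6676 bp, lay on V (3434538 to 3441213), with 43.1 kb free to the left and 78.9 kb to the right, where the next peak was also at the ceiling. On X, 2 of them lay in the left arm, with widths of 6322 bp (2057653 to 2063974) and 5681 bp (289745 to 295425). Another X peak (15806961 to 15811305), 4345 bp wide, lay in the right arm between neighbours of 57.8 and 132.6. On IV a 4706-bp peak (8466807 to 8471512) lay in the center. The highest on III was a 3327-bp peak in the left arm (1017324 to 1020650), and the highest on I a 929-bp peak in the center (7814370 to 7815298), 41.4 and 42.3 kb from its neighbours. The neighbours of the peak on III scored 132.51 and 72.98, and those of the peak on I 472.6 and 86.79.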

How the data were processed

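ChIP-seq peaks of 1 KLE-2 library were analysed; the input library was not analysed here. Per the submitters' processing notes, BWA aligned the reads to ce10. Per the file headers and columns, MACS called the peaks on WormBase WS220. Not given in the sources used here were the MACS version, its threshold and the role of the input. The deposited score of each peak is the authors' own value and was used only within this list. Read depth is unknown.

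Gaps were the bases between neighbouring peaks on a chromosome. For L long gaps among G gaps, the number of isolated peaks in random order has mean L(L-1)/G. Shares carry exact Clopper-Pearson intervals and medians order-statistic intervals, both at 95%. Named peaks were the 10 with the largest shorter gap, the 10 with the highest score (ties by width), the highest on each chromosome, the widest, and 3 on either side of the limit. The members and measures were chosen with earlier results of these data known. Gap finding was checked on simulated peaks, and the formula against random orders of the observed gaps. No gene or sequence of WS220 was used here. Figures were drawn with matplotlib 3.10.9, and values computed in Python 3.11.15 with scipy 1.17.1, pandas 2.3.3 and numpy 2.4.6.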

Additional observations from a re-analysis of the deposited data

How the results depend on the processing

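Under the alternatives run, the differences between isolated and other peaks in median score, median width and ceiling share kept their sign. The share of isolated peaks among all peaks has no sign to keep. The comparison of arms went the same way with 1 exception. When only peaks scoring above the median were kept, the arms held more of the isolated peaks (67.8%) than of the others (65.4%). In the whole list they held less (65.6% against 69.7%). By construction, the share of isolated peaks fell with the gap limit, from 18.9% at 10 kb and 12.4% at 15 kb to 3.89% at 30 kb and 0.949% at 50 kb. It was 20.0% in that reduced list, 9.48% after merging within 500 bp and 6.0% on the autosomes alone. The share of isolated peaks on X was 18.4% at 10 kb, 22.1% at 15 kb, 36.0% at 30 kb, 57.6% at 50 kb and 16.3% among peaks above the median score, each time above the X share of all peaks in that list. X had the fewest peaks per Mb, and a rule based on long gaps favours such a chromosome at any limit. With arms of 25% at each end, 50.6% of isolated peaks lay in arms, against 52.8% of the others. At 50 kb the median score of isolated peaks was 91.1 lower than that of the others (-91.1) and the median width 56 bp lower (-56), from 59 peaks. The intervals, -122.95 to 144.15 for the score and -123 to 47 bp for the width, include no difference. On X lay 34 of these peaks, with a median score of 118.61 (87.66 to 419.03). The 25 on the autosomes had a median of 139.15 (102.82 to 552.78). The ratio to shuffled gaps ran from 1.03 (score above the median, interval 0.961 to 1.108) to 1.18. Its interval also reached below 1 after merging (0.992 to 1.170) and at 50 kb (0.896 to 1.514). These intervals carry only the counting error of the share of isolated peaks. They are not the SD over random orders given above, so they cannot show whether a ratio lies within the spread of those orders. The comparison at the score ceiling was not planned and was chosen after seeing the data. Under the same alternatives its excess ran from 2.08 to 3.91 percentage points. No paired analysis was possible because all values came from 1 ChIP library, which also leaves no replicate to omit. With the depth unknown, weak sites under the threshold used for peak calling may lie within gaps counted as empty.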

Other observations

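On chromosome IV, 7 of the 9 isolated ceiling peaks lay in the right arm, between 11913423 and 16129871. That arm held 23 of the 47 ceiling peaks of the chromosome, so isolated and other ceiling peaks were both frequent there, and no test was made.

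Isolation did not mark a peak as a local maximum. Of the 488 isolated peaks, 164 had a higher score than both neighbours, or 33.6%, and 165 a lower score than both, or 33.8%. Among the other peaks with a neighbour on each side these shares were 32.4% and 32.7%. The 610 non-isolated peaks next to an isolated one had a median score of 202.18 (178.72 to 231), near the 201.3 of the isolated peaks, and 3.77% of them were at the ceiling (2.40 to 5.604%).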
